A study of Rattus norvegicus with 6 samples.

Results

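MHC class II molecules present peptides from swallowed and membrane proteins to CD4+ T cells. In the rat they are encoded by the RT1 complex: RT1-Da and RT1-Db1 give the alpha and beta chains of the RT1-D molecule, RT1-Ba and RT1-Bb those of the RT1-B molecule, Cd74 gives the invariant chain that fills their groove during assembly, and RT1-DMa and RT1-DMb give the DM molecule that exchanges the invariant chain remnant for peptide. Ciita is the transactivator that switches these genes on. It does not bind DNA itself but docks on factors assembled at the X and Y boxes of their promoters. In liver, class II is borne chiefly by macrophages, dendritic cells and B cells, and other cells can acquire it under interferon-gamma.

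These 8 genes were taken by their symbols from the 32623 genes of the deposited table, and each symbol stood in 1 row. RNA of rat liver (Rattus norvegicus) was sequenced in 6 libraries. The TAE group of 3 libraries comes from animals that underwent transarterial embolization, a blockade of the arteries feeding a liver tumour, and the HCC group of 3 libraries from controls without treatment in the same hepatocellular carcinoma study. The labels give no strain, age, sex, tumour model, time after embolization or agent for either group, and do not say whether tumour or surrounding liver was sampled or whether each library is 1 animal. The p-values thus cover only how far these samples spread, which may be technical. The tissue carried its label: Alb, the hepatocyte plasma protein, stood at 6948, 5318 and 15304 FPKM (counts corrected for exon length and for the total of the library) in TAE and at 12096, 14853 and 15868 FPKM in HCC.

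Depth was 14552885 to 16604067 counts per TAE library and 13448286 to 14370846 per HCC library. The TAE libraries stood further apart from each other than the HCC libraries did. Pearson correlations of log2 CPM across genes were 0.935 to 0.969 within TAE and 0.984 to 0.991 within HCC. Genes are no independent replicates here. Log2 CPM corrects counts for library total and for a further scaling factor per library (TMM), but not for exon length. FPKM carries no such factor. TAE replicate 3 differed from the other TAE libraries in ways that touch the results given here: the 9 hepatocyte markers averaged 0.24 above the HCC mean there on the log2 CPM scale, against 1.00 and 1.55 below it in TAE replicates 1 and 2. The changes of the 8 genes and the calls that differ without it are therefore also given without it. In bulk tissue, fewer cells of a type and less RNA per cell cannot be told apart.

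The promoters of these genes are shown because they carry the letters through which Ciita is known to act. RefSeq's promoter table for the GRCr8 assembly (250 bases before to 50 after a gene's start) holds 6 of the 8 genes, all but RT1-DMb and Ciita. The X box core was searched as AG, any 2 bases, AC, any 3 bases and TG, and the Y box core as CCAAT, both on both strands. The whole promoter of RT1-Da, the most abundant chain gene, is chr20:4515165-4515464 (plus strand), with both cores in capitals.
RT1-Da promoter: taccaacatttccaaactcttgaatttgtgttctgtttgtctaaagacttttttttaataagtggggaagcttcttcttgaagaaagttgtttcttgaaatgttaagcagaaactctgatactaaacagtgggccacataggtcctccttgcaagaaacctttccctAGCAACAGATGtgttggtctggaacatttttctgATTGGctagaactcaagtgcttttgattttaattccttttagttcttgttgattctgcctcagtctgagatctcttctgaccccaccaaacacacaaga

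Aligned by their cores, the stretches from X to Y box of the 6 promoters read as follows (GRCr8, each 5′ to 3′ on the strand of its gene, cores in capitals).
RT1-Da (chr20:4515324-4515378, plus): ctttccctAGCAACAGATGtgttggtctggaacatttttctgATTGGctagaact
RT1-Db1 (chr20:4560230-4560283, minus): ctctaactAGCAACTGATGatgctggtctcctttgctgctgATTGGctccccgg
RT1-Bb (chr20:4604167-4604220, minus): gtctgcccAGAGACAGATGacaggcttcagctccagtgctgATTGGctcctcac
Cd74 (chr18:56526981-56527029, plus): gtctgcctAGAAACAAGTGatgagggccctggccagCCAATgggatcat
RT1-DMa (chr20:4712387-4712440, minus): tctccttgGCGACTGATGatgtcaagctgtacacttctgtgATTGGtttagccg
RT1-Ba (chr20:4576974-4577026, plus): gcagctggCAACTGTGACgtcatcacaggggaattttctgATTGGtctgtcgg

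Both cores stood within 40 bases of each other in 4 of the 6 promoters (RT1-Da, RT1-Db1, RT1-Bb and Cd74), against 1.87% of 33469 rat promoters of the same length. The Y box core alone was present in 6 of 6, and in 37.5% of all promoters, and the X box core alone in 4 of 6, and in 14.9% of all. RT1-DMa and RT1-Ba matched only a shorter X core that drops the leading A, tried after the sequence of RT1-DMa was seen. It overlaps the longer one wherever that matches. On both strands the shorter core occurs in 39.8% of all promoters, and within 40 bases of a Y box core in 5.88% of all and in 6 of 6 of these. Read on the strand of the gene and followed by the Y box core, it occurs in 1.62% of all promoters and in 5 of these 6, all but RT1-Ba, where it lies on the opposite strand. The distance between the cores was 22 or 23 bases in the RT1-D, RT1-B and DM alpha genes and 17 bases in Cd74, whose Y box core reads in the other direction. The Cd74 pair lies further from the start used in the promoter table (from -217) than the others, but its X box core begins 82 bases before the outermost start in RefSeq's gene table. Matches are descriptions of letters and were not tested for binding.

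**Figure D1:**
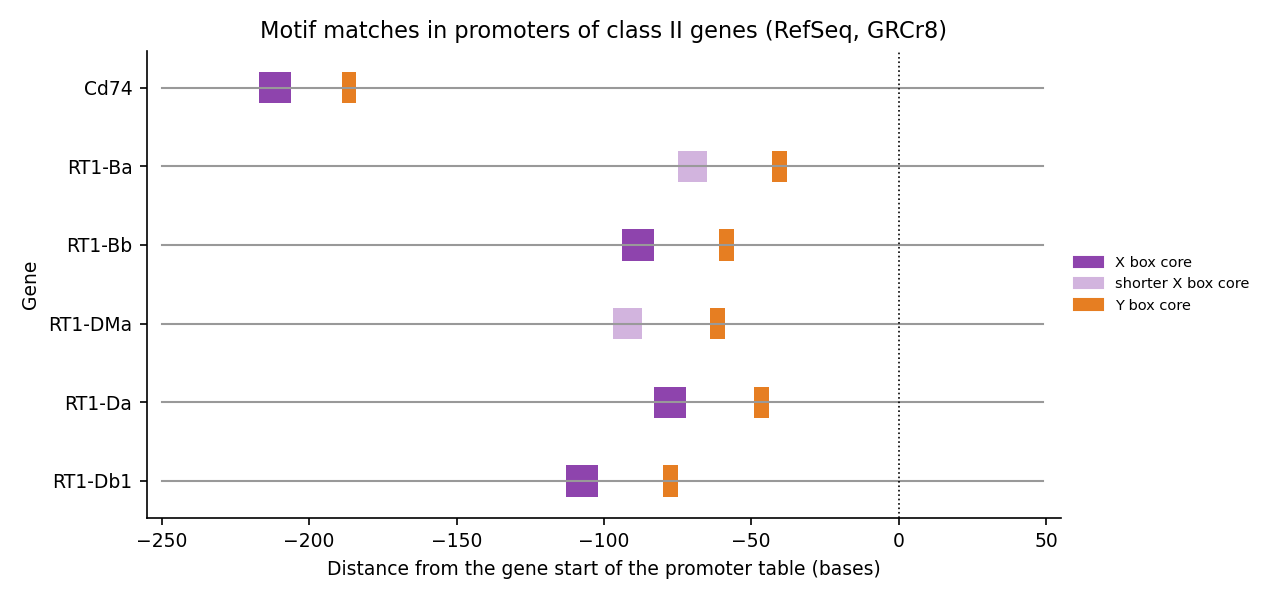
Positions of X box core (purple; pale for the shorter core) and Y box core (orange) matches in 6 promoters, as distance in bases from the gene start used in RefSeq's promoter table. The cores are 22 or 23 bases apart in 5 promoters and 17 in Cd74, and RT1-DMa and RT1-Ba show the shorter X core, in RT1-Ba on the opposite strand.

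Messenger RNA of all 8 genes was higher in each TAE library than in any HCC library, but Ciita alone passed the test across all genes. Groups that do not overlap upward were seen for 8 of 8 genes, against 19.5% of the 14499 genes tested. Passing an adjusted p of 0.05 upward held for 1 of 8, against 2.70% of all genes tested (edgeR's quasi-likelihood test, Benjamini-Hochberg adjustment over all genes). The median log2 change of the 8 genes was 1.09, and that of all genes tested was -0.03. All 8 genes passed the filter on low counts, which asks for enough counts in 3 libraries. RT1-DMb, at 11, 17 and 4 counts in HCC, passed it through its TAE libraries (55, 26 and 39 counts). Its higher level in TAE is thus not independent of that filter.

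Cd74 was the most abundant gene of the family. It stood at 1661, 1679 and 2807 FPKM in TAE replicates 1 to 3, against 894, 1014 and 898 FPKM in HCC replicates 1 to 3. Each TAE library lay above every HCC library, and TAE replicate 3 lay furthest out. The log2 change was 1.12 ± 0.31 (SE), with an adjusted p of 0.0940 in edgeR.

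RT1-Da, whose product is the near invariant alpha chain of the RT1-D molecule (the rat counterpart of human HLA-DR), stood at 640.2, 649 and 1044 FPKM in TAE, against 365, 386 and 322 FPKM in HCC. Its log2 change was 1.11 ± 0.29 (edgeR adjusted p = 0.0864). RT1-Db1, the beta chain that pairs with it, stood at 88.9, 90.6 and 159 FPKM in TAE, against 50.4, 59.2 and 50.1 FPKM in HCC, a log2 change of 1.08 ± 0.31 (edgeR adjusted p = 0.108). For both chains TAE replicates 1 and 2 were nearly equal and TAE replicate 3 was higher, and neither passed the test.

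RT1-Ba, the alpha chain of the RT1-B molecule (the counterpart of human HLA-DQ), stood at 113, 114 and 197 FPKM in TAE, against 69.7, 79.0 and 60.2 FPKM in HCC. RT1-Bb, its beta chain, stood at 29.6, 33.5 and 52.7 FPKM in TAE, against 18.2, 22.5 and 17.8 FPKM in HCC. Their log2 changes were 1.01 ± 0.31 and 0.98 ± 0.30 (edgeR adjusted p = 0.119 and 0.118). TAE replicate 3 was again the highest library and the groups did not overlap.

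RT1-DMa and RT1-DMb had few counts. RT1-DMa had 50, 38 and 138 counts in TAE (1.98, 1.32 and 4.79 FPKM), against 10, 19 and 14 counts in HCC (0.40, 0.81 and 0.57 FPKM). RT1-DMb had 55, 26 and 39 counts in TAE, against 11, 17 and 4 counts in HCC. The log2 changes of 2.20 ± 0.63 and 1.69 ± 0.57 were the largest of the family and the least precise (edgeR adjusted p = 0.105 and 0.146).

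The DM values are uncertain as single genes, because the table annotates a second copy of each on chromosome 20. LOC108348072, described as an M alpha chain, had 116, 59 and 95 counts in TAE and 22, 21 and 16 in HCC. LOC108348139, described as an M beta 1 chain, had 49, 54 and 56 counts in TAE and 9, 12 and 17 in HCC. With both copies summed, a step added after seeing the data, the M alpha genes had 166, 97 and 233 counts in TAE against 32, 40 and 30 in HCC, a log2 change of 2.09 (edgeR adjusted p = 0.0504). The M beta genes had 104, 80 and 95 counts in TAE against 20, 29 and 21 in HCC, a log2 change of 1.77 that passed (edgeR adjusted p = 0.0410), so the number of genes called became 2 of 8, against 2.70% of all genes. How reads matching both copies were counted is not given in the sources used here.

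Ciita rose. It stood at 28.2, 22.7 and 22.2 FPKM in TAE replicates 1 to 3 (2266, 2075 and 2029 counts), against 13.5, 12.8 and 10.9 FPKM in HCC replicates 1 to 3 (1069, 946 and 851 counts). Its log2 change was the smallest of the 8, at 0.93 ± 0.15, and the most precise (edgeR adjusted p = 0.0393). TAE replicate 1 was the highest library for Ciita, where TAE replicate 3 was the highest for Cd74 and the 4 RT1-D and RT1-B chains. The highest TAE library exceeded the lowest by a factor of 1.27 for Ciita and of 1.63 to 1.79 for Cd74 and these 4 chains.

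**Figure D2:**
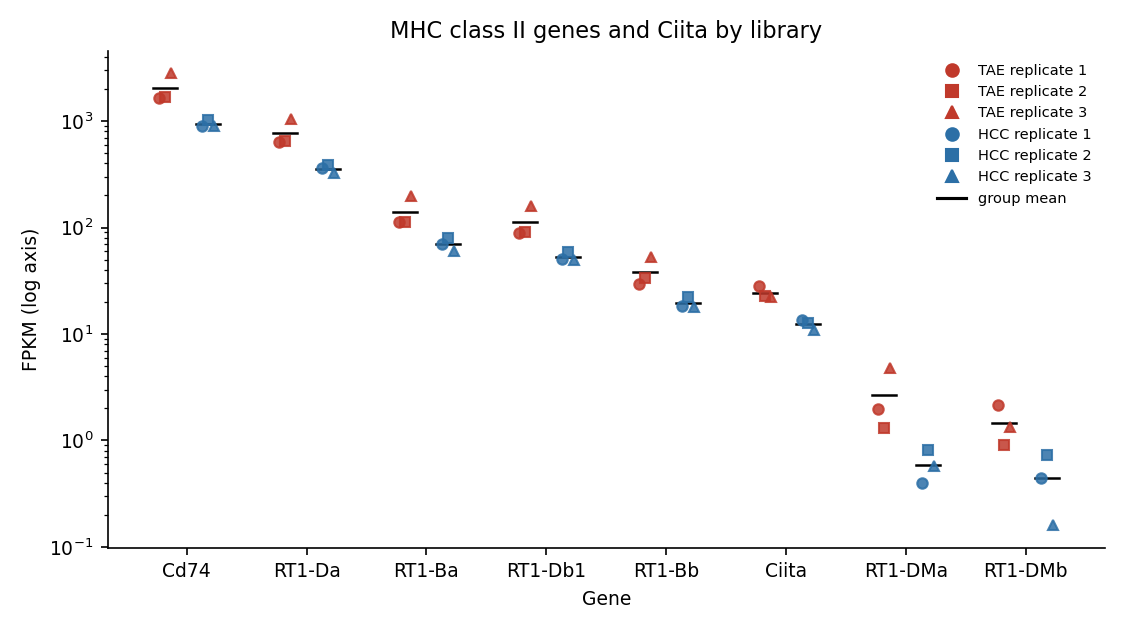
FPKM (log axis) of the 8 genes in 3 TAE libraries (red, left of each pair) and 3 HCC libraries (blue, right), with group means as black lines and symbols for replicates. TAE replicate 3 (red triangle) lies highest for Cd74 and the 4 RT1-D and RT1-B chains, at 2807 FPKM for Cd74, whereas for Ciita TAE replicate 1 is highest at 28.2 FPKM.

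These calls rested on single libraries. Without TAE replicate 2, 8 of 8 genes passed (edgeR, where 14.6% of all genes passed upward), and without TAE replicate 3, 6 of 8 passed, all but RT1-DMa and RT1-DMb (4.82% of all genes upward). Without TAE replicate 3 the log2 changes of Cd74, RT1-Da, RT1-Db1, RT1-Ba and RT1-Bb were 0.72, 0.73, 0.63, 0.58 and 0.57, smaller than with all libraries, while that of Ciita was 0.93 in both fits. RT1-DMa fell from 2.20 to 1.35 without that library, and RT1-DMb was nearly unchanged (1.69 and 1.68). The call of Ciita was lost without HCC replicate 1, 2 or 3 or TAE replicate 1 (edgeR adjusted p = 0.186, 0.142, 0.223 and 0.145). In these fits edgeR called 0, 1, 0 and 1 of all genes and 0 of the 8. There 7, 8, 7 and 7 of the 8 had an unadjusted p under 0.05 in edgeR. Of all genes, 2210 of 14812, 2243 of 14820, 1997 of 14824 and 2197 of 14675 did. With other settings, 2 of 8 passed without a filter on low counts (3.51% of all genes upward), 1 of 8 with median-of-ratios scaling (2.94%), 3 of 8 with limma on log2(FPKM + 1) and with a pseudocount of 0.1 (4.27% and 4.38%), and 1 of 8 with limma without an FPKM filter (1.51%). DESeq2 on all libraries called 7 of 8, all but RT1-DMb (8.81% of all genes upward), and called 7, 8 and 6 of 8 without TAE replicates 1, 2 and 3 (4.34%, 14.8% and 8.08% of all genes upward) and 2, 6 and 1 of 8 without HCC replicates 1, 2 and 3 (5.20%, 6.26% and 4.13%). No gene of the other lists described here passed in edgeR without TAE replicate 1 or any HCC library.

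**Figure D3:**
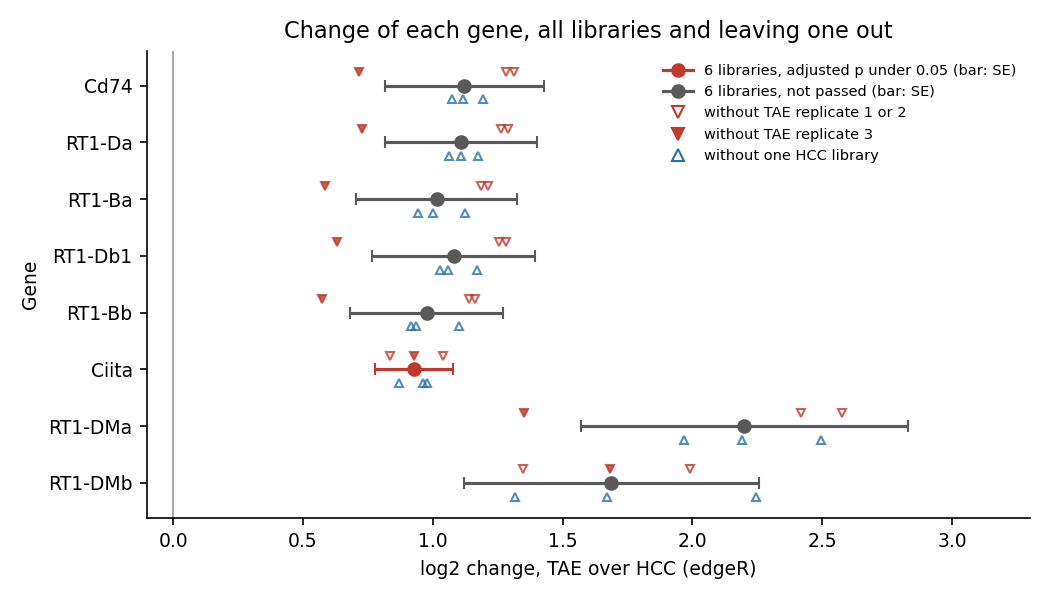
Log2 change of each gene, TAE over HCC, in edgeR with all 6 libraries (circles, bars are SE) and with each library left out (triangles). Ciita (red circle) passed at 0.93, and the filled triangles show that without TAE replicate 3 the changes of Cd74 and the 4 chains shrink to 0.57 to 0.73.

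Cd74 and the 4 RT1-D and RT1-B chains stood in similar proportions to each other in all 6 libraries. The summed FPKM of the 7 genes other than Ciita was 2537, 2568 and 4267 in TAE and 1398, 1562 and 1349 in HCC, a mean 2.18 times as high in TAE. These values are descriptions, as the genes were chosen together. Cd74 made up 65.5%, 65.4% and 65.8% of the sum in TAE, and 63.9%, 64.9% and 66.6% in HCC. RT1-Da made up 25.2%, 25.3% and 24.5% in TAE, and 26.1%, 24.7% and 23.9% in HCC. Shares of both genes overlapped between the groups.

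The chain pairs were just as steady on the scale of FPKM, which corrects for exon length. RT1-Da exceeded RT1-Db1 by a factor of 7.205, 7.16 and 6.56 in TAE and of 7.25, 6.52 and 6.44 in HCC. RT1-Ba exceeded RT1-Bb by a factor of 3.81, 3.40 and 3.74 in TAE and of 3.83, 3.51 and 3.39 in HCC. Cd74 stood at 1.91 ± 0.020 times the sum of the 4 chains in TAE and at 1.87 ± 0.11 times in HCC (SD, n = 3 each). Each of these ratios overlapped between the groups. Levels of the beta chains are uncertain, since RT1 beta genes are polymorphic relatives whose reads the counting could have lost or split. RT1-Db2, a close relative of RT1-Db1, had 0.28, 0.08 and 0.25 FPKM in TAE and 0.05, 0.76 and 0.19 FPKM in HCC.

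The proportion of Ciita to the class II sum varied more in TAE than in HCC. Per 1000 FPKM of the class II sum there were 11.1, 8.84 and 5.19 FPKM of Ciita in TAE and 9.65, 8.16 and 8.09 in HCC. The highest and the lowest value of all 6 libraries were both in TAE, in replicates 1 and 3. The mean log2 ratio was 0.11 lower in TAE, within the spread between libraries, and 0.20 higher without TAE replicate 3.

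Genes nearest to Ciita were sought by the mean absolute difference of log2 CPM, each gene centred on its mean over the 6 libraries, among 11729 named genes with a mean of at least 1 FPKM. Grk3, B4galt6, Cttnbp2nl and Snx10 were among the 5 nearest, at differences of 0.025 to 0.039. B4galt6, a galactosyltransferase of glycolipid synthesis, stood at 17.3, 13.5 and 13.5 FPKM in TAE and 7.78, 7.53 and 6.62 FPKM in HCC, with TAE replicate 1 highest as for Ciita. None of the other class II genes was as close to Ciita as these, with differences of 0.22 to 0.54. The genes nearest to the mean of the 7 class II molecule genes were Pfkfb3, Ctsb, Anpep, Layn and Lgmn, at 0.072 to 0.088, of which Ctsb and Lgmn encode the lysosomal proteases cathepsin B and legumain. The 7 genes weigh equally in this mean, the low-count RT1-DMa and RT1-DMb included. Each of the 7 lay further from it (0.11 to 0.43) than those 5 genes. From TAE replicate 1 to 2 Ctsb went from 984 to 765 FPKM and Lgmn from 439 to 314, while Cd74 stood at 1661 and 1679. Likeness here is a description over 6 libraries that also share the difference between the groups.

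Other class II chains were measured less well. RT1-DOa and RT1-DOb encode DO, an inhibitor of DM known mainly from B cells. RT1-DOa stood at 7.61, 7.80 and 10.8 FPKM in TAE and 5.00, 5.97 and 5.63 FPKM in HCC, and RT1-DOb at 7.76, 8.72 and 11.9 FPKM in TAE and 6.79, 6.49 and 5.67 FPKM in HCC. Neither passed (log2 changes 0.63 ± 0.26 and 0.56 ± 0.26, edgeR adjusted p = 0.205 and 0.249), and their groups did not overlap. RT1-Ha and RT1-Db2 had too few counts to be tested.

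The factors that bind class II promoters together with Ciita did not pass. Of 6 such genes tested, 0 were called (edgeR) and 0 in DESeq2, 4 had positive log2 changes, and their median was 0.07. The largest were Creb1, a cyclic AMP responsive factor (-0.40 ± 0.21), Nfyb, a subunit of the Y box factor NF-Y (-0.34 ± 0.12), and Rfxank, a subunit of the X box complex (0.30 ± 0.18). Nfyb stood at 13.2, 13.3 and 10.4 FPKM in TAE and 14.8, 15.7 and 14.4 FPKM in HCC. Rfxap, another subunit, is listed at 0 in all 6 libraries.

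Genes that prepare peptides and trim the invariant chain included 3 that rose among 8 tested, against 2.70% of all genes. All 8 log2 changes were positive, with a median of 1.30. Ctss, the cathepsin that performs the last cuts of the invariant chain in antigen-presenting cells, rose to 359, 287 and 562 FPKM in TAE, against 127, 144 and 108 FPKM in HCC (log2 change 1.67 ± 0.33, edgeR adjusted p = 0.0487). Ifi30, a lysosomal thiol reductase that opens disulfides of antigens, stood at 238, 192 and 248 FPKM in TAE and 88.0, 96.5 and 82.5 FPKM in HCC, and rose by 1.31 ± 0.20 on the log2 scale. Ctsd, an aspartic protease of lysosomes, rose by 1.41 ± 0.25. For these 3 genes the groups did not overlap, and TAE replicate 2 was the lowest TAE library. Without TAE replicates 2 and 3, 7 and 5 of the 8 passed upward, against 14.6% and 4.82% of all genes (edgeR). DESeq2 on all libraries called 5 of the 8 upward, against 8.81% of all genes. These proteases also serve lysosomes at large, outside class II presentation.

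Of 3 genes that control class II at the surface, Cd83 rose and Marchf1 and Marchf8 did not pass. Cd83, a surface protein of mature dendritic cells known to protect class II from Marchf1, stood at 16.8, 10.8 and 21.2 FPKM in TAE and 4.70, 4.84 and 5.77 FPKM in HCC (log2 change 1.66 ± 0.32). Marchf1, the ubiquitin ligase that removes class II from the surface, stood at 9.25, 5.36 and 6.22 FPKM in TAE and 3.18, 3.21 and 3.42 FPKM in HCC (1.03 ± 0.29, edgeR adjusted p = 0.104). Its relative Marchf8 had a log2 change of -0.01. Marchf1 passed in edgeR without TAE replicate 2, and in DESeq2 with all libraries.

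Upstream of Ciita, 1 of 9 genes of the interferon-gamma pathway rose, against 2.70% of all genes. Of the log2 changes 9 of 9 were positive, with a median of 0.37. Ifngr1, the ligand-binding chain of the receptor, stood at 131, 87.5 and 104 FPKM in TAE and 50.6, 49.4 and 41.2 FPKM in HCC, a rise of 1.15 ± 0.20 on the log2 scale (edgeR adjusted p = 0.0406). Jak2, a receptor kinase, and Socs1, an inhibitor of it, had log2 changes of 0.56 ± 0.17 and 0.54 ± 0.24 and did not pass. Ifng itself, named here after its values were seen, stood at 5.79, 8.04 and 4.25 FPKM in TAE and 4.50, 7.58 and 4.72 FPKM in HCC, with overlapping groups and a log2 change of 0.03 ± 0.32. Without TAE replicate 2, 4 of the 9 passed upward (14.6% of all genes), Ifngr1, Ifngr2 and Jak2 among them. DESeq2 on all libraries called 2 of the 9 upward, Ifngr1 and Ifngr2, against 8.81% of all genes.

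None of 10 genes that respond to interferon-gamma passed in edgeR (0 in DESeq2), and 7 had positive and 3 negative log2 changes, the median being 0.13. Ido1, a tryptophan-degrading enzyme, stood at 5.73, 9.81 and 3.99 FPKM in TAE and 10.2, 8.99 and 10.1 FPKM in HCC (-0.67 ± 0.27, edgeR adjusted p = 0.201). Cxcl10, a chemokine for T cells, had a log2 change of -0.51 ± 0.29. Nlrc5, the counterpart of Ciita for MHC class I genes, stood at 8.30, 8.08 and 8.70 FPKM in TAE and 5.81, 5.86 and 5.69 FPKM in HCC, with a log2 change of 0.49 ± 0.15, which did not pass (edgeR adjusted p = 0.112). Without TAE replicate 2, 4 of the 10 passed, Nlrc5 upward and Cxcl10, Cxcl11 and Ido1 downward, and without TAE replicate 3, 0 passed. The fit without TAE replicate 2 called 3569 of 14743 genes, 2159 of them upward and the others downward.

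Among lineage factors that act on Ciita, 2 of 4 tested rose, against 2.70% of all genes. Spi1, the PU.1 factor of myeloid cells and B cells, stood at 44.1, 43.0 and 51.1 FPKM in TAE and 18.9, 21.2 and 18.1 FPKM in HCC (log2 change 1.22 ± 0.18, edgeR adjusted p = 0.0388). Irf8, its partner in macrophages and dendritic cells, stood at 79.0, 73.1 and 74.0 FPKM in TAE and 43.0, 39.1 and 36.7 FPKM in HCC (0.88 ± 0.14). By FPKM, Irf8 like Ciita was highest in TAE replicate 1, but its 3 TAE values lay close together. TMM factors over all genes, which FPKM does not apply, were 1.04 in TAE replicate 1 and 0.904 in TAE replicate 3. The order for Irf8 therefore depends on the scaling. Irf4 had a log2 change of 0.68 ± 0.34 and did not pass, and Pax5, the B cell factor, had too few counts to be tested.

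Of 5 T cell receptors and costimulators that meet class II or its cells, Cd80, a costimulatory ligand of antigen-presenting cells, rose to 2.93, 2.26 and 3.61 FPKM in TAE, against 0.89, 0.77 and 0.69 FPKM in HCC (log2 change 1.88 ± 0.30, edgeR adjusted p = 0.0388). Cd4, the coreceptor for class II, which rat macrophages also express, stood at 70.5, 48.8 and 96.7 FPKM in TAE and 29.5, 31.1 and 25.0 FPKM in HCC (1.33 ± 0.31, edgeR adjusted p = 0.0664). Cd86 had a log2 change of 1.08 ± 0.24 and did not pass. Without TAE replicate 2 or 3, 4 of the 5 passed upward, all but Lag3, against 14.6% and 4.82% of all genes (edgeR). DESeq2 on all libraries called the same 4 of 5 upward, against 8.81% of all genes. The T cell markers Cd2, Cd3d and Cd3g had log2 changes of 0.61, 0.36 and 0.34, their groups overlapped, and 0 of 5 T cell markers were called in edgeR or DESeq2. The median over these 5 was 0.34 with all libraries and -0.22 without TAE replicate 3.

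**Figure D4:**
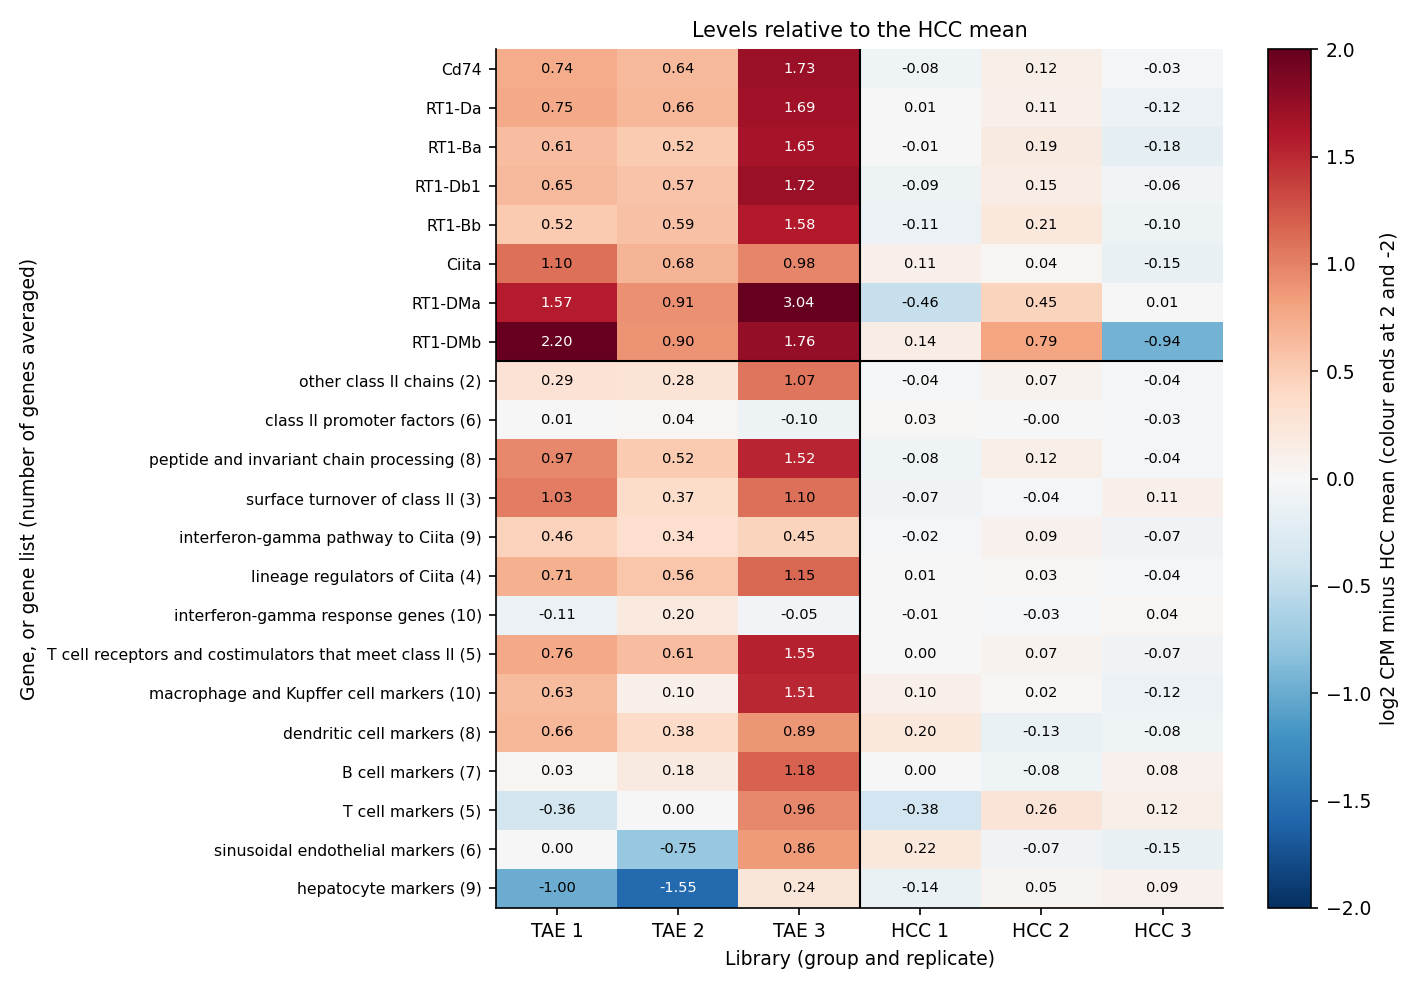
Log2 CPM minus the HCC mean in each library, for the 8 genes (above the line) and for the mean of each gene list (below), with TAE libraries left of HCC libraries and colour saturated at 2 and -2. In TAE replicate 3 Cd74 stands at 1.73 and the macrophage list at 1.51, in TAE replicate 2 at 0.64 and 0.10.

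Several macrophage markers were higher in TAE together with these genes, and their part in the result was not tested. Of 10 macrophage and Kupffer cell markers, 5 rose (Lyz2, Cd68, Msr1, Aif1 and Csf1r), none fell, and the median log2 change was 1.22. Of all genes, 2.70% rose in that fit. DESeq2 on all libraries called 6 of the 10 upward, against 8.81% of all genes. The 4 markers Clec4f, Cd163, Marco and Vsig4, which mark resident or scavenging macrophages, had log2 changes of -0.38, -0.10, -0.05 and 0.42, and their groups overlapped. Without TAE replicate 3, where 1226 of 14714 genes passed (709 upward), 6 of the 10 markers passed upward and 2, Clec4f and Marco, downward. Their summed FPKM was 3367 to 4437 in TAE and 1155 to 1384 in HCC, with Lyz2 the largest term and no marker at 0. The list averaged 0.63, 0.10 and 1.51 above the HCC mean in TAE replicates 1, 2 and 3 on the log2 scale, and the 7 class II molecule genes 1.01, 0.68 and 1.88. In both, TAE replicate 3 was highest and TAE replicate 2 lowest. Between TAE replicates 1 and 2 the class II mean differed mostly through the low-count RT1-DMa (1.57 and 0.91) and RT1-DMb (2.20 and 0.90). Cd74 stood at 0.74 and 0.64 there and RT1-Bb at 0.52 and 0.59. By FPKM, Cd74 and the 4 RT1-D and RT1-B chains were slightly lower in TAE replicate 1 than in TAE replicate 2.

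Of 8 dendritic cell markers tested, Itgax rose to 12.8, 11.0 and 14.3 FPKM in TAE, against 3.20, 3.33 and 3.18 FPKM in HCC, and 7 did not pass, with a list median of 0.55. Clec10a and Xcr1 had log2 changes of 1.17 ± 0.36 and 0.74 ± 0.53. The summed FPKM of the list was 170 to 291 in TAE and 79.6 to 143 in HCC, most of it Clec10a, which macrophages share, and no marker was at 0. Clec10a passed in edgeR without TAE replicate 2, and in DESeq2 with all libraries. None of 7 B cell markers passed in edgeR (2 did in DESeq2, and Ms4a1 upward and Fcrla downward in edgeR without TAE replicate 2). Their summed FPKM was 34.7 to 72.5 in TAE and 61.4 to 67.3 in HCC. Most of that sum was Fcrla, at 27.98, 60.67 and 17.55 FPKM in TAE and 58.63, 54.83 and 59.97 FPKM in HCC. The sum thus says little of the other markers, and 5 of the 7 log2 changes were positive, with a median of 0.76. Without TAE replicate 3 that median was 0.10. On the log2 CPM scale the B cell list averaged 0.03, 0.18 and 1.18 above the HCC mean in TAE replicates 1, 2 and 3. Ms4a1, which encodes CD20, stood at 0.73, 0.78 and 3.23 FPKM in TAE and 0.28, 0.12 and 0.23 FPKM in HCC (2.90 ± 0.85, edgeR adjusted p = 0.111). Cd79a and Fcrla had log2 changes of 0.85 and -0.82. Markers of sinusoidal endothelium and hepatocytes did not pass with all libraries (0 also in DESeq2), with medians of 0.34 over 6 genes (largest Tek, Cdh5 and Kdr at 0.60, 0.51 and 0.48) and -0.59 over 9 genes (largest Apoa1, Ttr and Apoc3 at -0.95, -0.85 and -0.70). Without TAE replicate 3, 8 of 9 hepatocyte markers passed downward, all but Cps1, with a median of -1.26. So did 1 of 6 endothelial markers (Clec4g), with a median of 0.05 over that list. In that fit 1226 of 14714 genes passed, 709 of them upward and the others downward. Without TAE replicate 2, the endothelial markers Tek, Cdh5 and Kdr passed upward and 0 hepatocyte markers passed.

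Set against single macrophage markers, Cd74 gave different pictures. Per FPKM of Cd68, a lysosomal protein of macrophages, there were 7.29, 9.15 and 8.01 FPKM of Cd74 in TAE and 11.7, 12.1 and 12.3 in HCC, so that all TAE libraries lay below all HCC libraries. Per FPKM of Lyz2, the myeloid lysozyme, there were 0.470, 0.602 and 0.837 in TAE and 1.32, 1.10 and 1.12 in HCC, again without overlap. Per FPKM of Csf1r, Adgre1, Msr1 and Aif1 the groups overlapped, with Adgre1 at 38.3, 50.8 and 43.5 in TAE and 42.6, 50.1 and 51.5 in HCC. Per FPKM of Clec4f, a lectin of resident Kupffer cells in rodents, there were 39.4, 46.7 and 31.3 in TAE and 10.2, 16.0 and 13.0 in HCC. The same held for Cd163, Vsig4 and Marco, so that of 10 markers Cd74 was lower in TAE relative to 2, higher relative to 4 and overlapping relative to 4. These ratios are descriptions with no test.

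**Figure D5:**
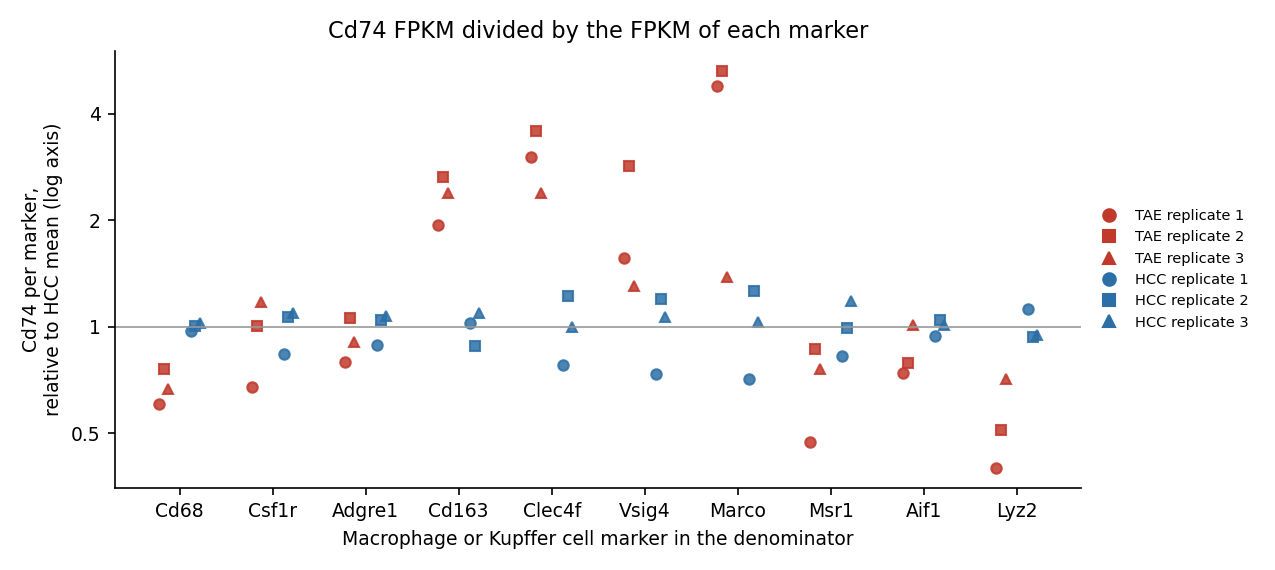
Cd74 FPKM divided by the FPKM of each of 10 macrophage or Kupffer cell markers, relative to the HCC mean of that ratio (log axis), in 3 TAE libraries (red, left of each pair) and 3 HCC libraries (blue, right). Ratios to Cd68 and Lyz2 lie below all HCC libraries and ratios to Cd163, Clec4f, Vsig4 and Marco above them.

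As the deposited table gives them, the genes lie on chromosome 20 (RT1-DMa at 3935529 to 3938915, RT1-DMb at 3945601 to 3952846, RT1-Bb at 4039413 to 4049711, RT1-Ba at 4066132 to 4070721, RT1-Db1 at 4087618 to 4097190 and RT1-Da at 4127644 to 4132616), chromosome 18 (Cd74 at 56071478 to 56080849) and chromosome 10 (Ciita at 5213350 to 5260608). The build of these positions is not settled: the submitters' processing notes name mRatBN7.2, but the last gene of chromosome 1 ends at 282724300, past the end of chromosome 1 in that build. They were therefore not combined with the GRCr8 promoters.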

How the data were processed

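Rat liver RNA was measured by RNA sequencing in 3 TAE and 3 HCC libraries, grouped by their titles. Per the labels' protocols, libraries were strand-specific (dUTP), poly(A)-selected and read from both ends. Per the file headers, the 1 table deposited by the authors gives each gene's raw count and FPKM in each sample. FPKM equals the deposited count scaled to exonic size and library total (100% of values within 0.006 when recomputed). The sources used here name no aligner or counting tool and do not say how strand and multiply matching reads were treated.

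TAE was compared with HCC on the counts, in both directions and unblocked, by the quasi-likelihood test of edgeR 4.0.16 (R 4.3.3) after TMM scaling and filterByExpr. P-values of 14499 genes were adjusted by Benjamini-Hochberg, with 0.05 as threshold. The standard error is the absolute log2 change divided by the square root of F. Alternatives used limma 3.58.1 on log2(FPKM + 1), DESeq2 1.42.0, other scalings, filters and pseudocounts, a replicate block, and leaving out each library. Scripts were tested on simulated data. No replicates were near-identical (lowest chi-square per degree of freedom 5.50). Of 98 entries in 14 other gene lists, 97 matched by symbol. RT1-Hb was unmatched and is not analysed here.

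The 8 genes, the lists and the tests were chosen with earlier results of these data known. Named were all 8 genes, genes of each list that passed, further list members with the largest change up to 3 per list, and the 5 nearest genes, of which 1 of those nearest to Ciita is not reported here. Counting error is small at these depths except for genes near 1 FPKM, such as the DM genes.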

Additional observations from a re-analysis of the deposited data

How the results depend on the processing

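Among the 112 values of the 8 log2 changes under 14 alternatives, direction was kept in all, 24 gained a call and 5 (all of Ciita) lost it. The number of genes called was 437 of all genes, 1 of 8 class II genes and 14 of the genes within the other lists. These became 829, 2 and 20 without a filter on low counts, 1664, 7 and 25 with DESeq2, 701, 3 and 20 with limma on log2(FPKM + 1), and 709, 3 and 20 with a pseudocount of 0.1. With median-of-ratios scaling they were 475, 1 and 14, and with limma without an FPKM filter 364, 1 and 13. Summing the second DM copies gave 436, 2 and 14. Leaving out 1 library gave 0 to 3569, 0 to 8 and 0 to 37. With the replicate number as a block edgeR called 0, 0 and 0, where 2984 of all genes and 8 of 8 class II genes had an unadjusted p under 0.05. The labels do not say that a number marks a pair. Deviations of same-numbered libraries correlated at 0.10, -0.21 and 0.03, and no sample was crossed. The cause of these changes was not tested. The log2 ratio of Ciita to the class II sum, -0.11, ranged from -0.34 to 0.20 with 1 library left out. The positive value is that without TAE replicate 3. The log2 difference of the sum, 1.08, ranged from 0.83 to 1.21. Depth limits RT1-DMa and RT1-DMb, with 4 to 138 counts per library.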
